A study of Rattus norvegicus with 63 samples.

Results

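The cytochrome P450 genes of families 1 to 4 were examined in rat liver after 15 compounds, as the members with 1 annotated symbol starting with Cyp1, Cyp2, Cyp3 or Cyp4 followed by a letter, without Cyp2c11 and Cyp2c12. This rule found 38 genes of 10411 genes with 1 symbol on the array, and each gene was read from its probe set with the highest mean level over all 63 arrays. The animals were male Wistar Hanover rats that received a compound or the vehicle alone by gavage, and each array holds the liver RNA of 1 animal, with 3 arrays in each of 21 groups. Histopathology guided which 3 of the dosed animals of a group were arrayed, so the arrays are different animals but were not drawn at random.

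Methylcellulose was the vehicle of control sets 1, 2, 5 and 6, and corn oil that of control sets 3 and 4. Control set 1 served acetamide (AA, 3000 mg/kg/day, 14 days), dehydroepiandrosterone (DHEA, 600 mg/kg/day, 14 days), methylcarbamate (Mcarb, 400 mg/kg/day, 14 days), methapyrilene HCl (MPy, 60 mg/kg/day, 7 days), thioacetamide (TAA, 19.2 mg/kg/day, 7 days) and Wy-14643 (Wy, 60 mg/kg/day, 3 days). Control set 2 served cefuroxime (CFX, 250 mg/kg/day, 14 days) and nifedipine (Nif, 3 mg/kg/day, 14 days). Control set 3 served C.I. Direct Black (CIDB, 146 mg/kg/day, 7 days) and dimethylnitrosamine (DMN, 4 mg/kg/day, 7 days). Control set 4 served cyproterone acetate (CPA, 100 mg/kg/day, 14 days), and control set 5 served diethylstilbestrol (DES, 10 mg/kg/day, 3 days), ethionine (ETH, 200 mg/kg/day, 14 days) and piperonylbutoxide (PBO, 1200 mg/kg/day, 3 days). Control set 6 served phenobarbital sodium (PB, 14 days, with no dose in the labels). The control sets were labelled with 14 days, set 3 with 7 days, so the labelled days of DES, PBO, Wy, MPy and TAA differ from those of their controls and the time cannot be told apart from the compound there.

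P450 enzymes of families 1 to 3 oxidise drugs, steroids and other foreign or endogenous lipophilic compounds in the endoplasmic reticulum of hepatocytes, and many family 4 enzymes hydroxylate fatty acids and eicosanoids. Their genes are known targets of ligand-activated receptors: AHR for family 1, CAR and PXR for CYP2B, CYP2C and CYP3A, and PPARalpha for CYP4A. In the rat several CYP2 and CYP3 genes also depend on sex and on the pattern of growth hormone release.

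Levels are log2 expression values (RMA), on which a difference of 1 is a doubling. A gene was called in a compound at an adjusted p under 0.05 in a limma fit of all 63 arrays, with the Benjamini-Hochberg adjustment over 15866 probe sets. Levels of different probe sets do not rank genes, because probes differ in affinity. In whole liver, fewer hepatocytes and less RNA per hepatocyte cannot be told apart. The hepatocyte markers were high in every group, with 9 of 10 listed genes measured and a mean level from 13.26 to 13.76 in all treated arrays.

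Of 570 combinations of a member and a compound, 125 were called (21.9%), 40 up and 85 down, where 9.89% of all combinations of a gene and a compound were called, 4.98% up and 4.91% down. A total of 33 members were called in at least 1 compound, of which 8 were called up only, 16 down only and 9 in both directions. In 121 of the 125 calls the treated arrays did not overlap the controls, as in 94.1% of the calls over all genes, and 38 (30.4%) reached a fold of 2 against 8.53%. The members are mostly bright, with 23 of the 38 above the 90th percentile of mean level over all probe sets. The shares were not compared with genes of like level. When each of the 6 arrays of a comparison was left out in turn, 87 calls held each time and 38 were lost at least once. The 5 members without a call were Cyp1b1, Cyp2a3, Cyp2b12, Cyp2b21 and Cyp2g1, genes known mainly from other tissues. Their probe sets lay at the 49.2nd percentile of mean level or lower, and a missing call there does not show that the gene was unchanged.

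**Figure D1:**
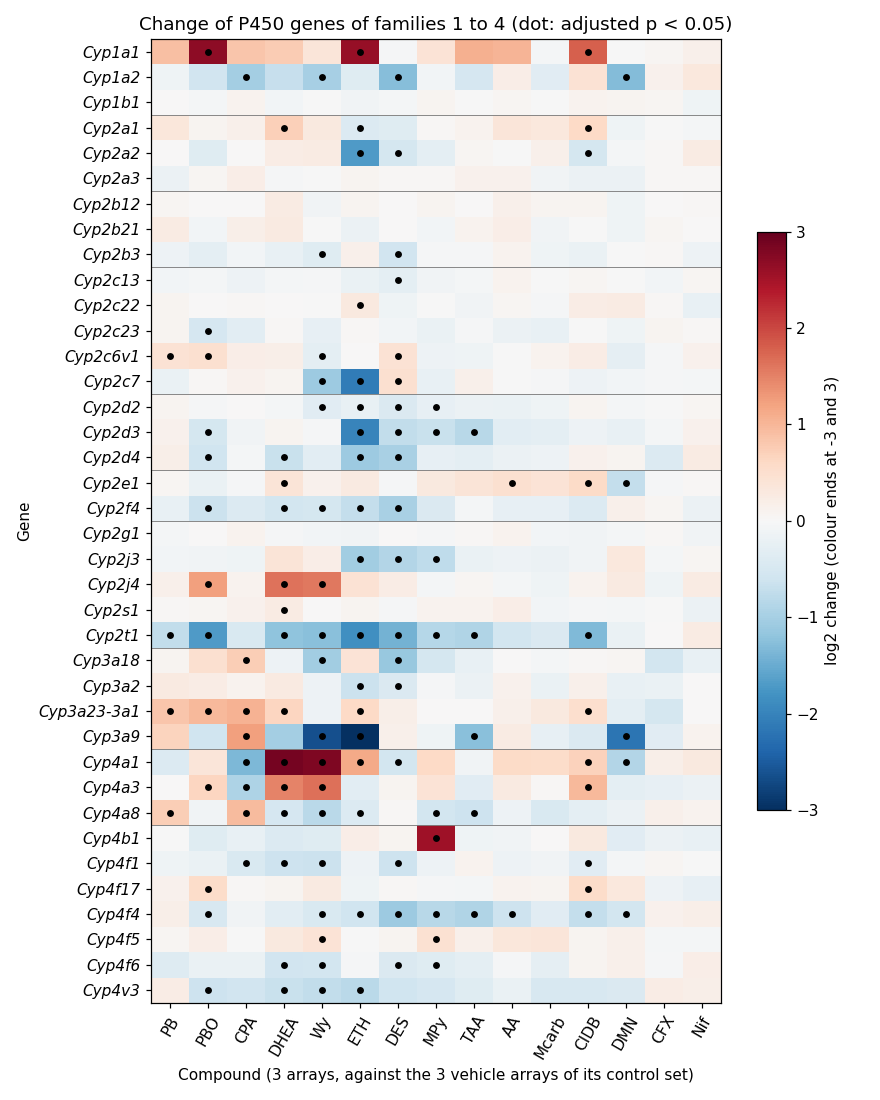
Log2 change of each of the 38 genes (rows, with lines between subfamily groups except around the CYP2J genes) in each compound against its own control set (columns). Dots mark the 125 calls at an adjusted p under 0.05, and the colour scale ends at -3 and 3, so that Cyp3a9 in ETH, which fell by 3.91, lies beyond it. The strongest reds are Cyp1a1 in PBO and ETH, Cyp4a1 in DHEA and Wy and Cyp4b1 in MPy.

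Genes of other liver cells moved in several compounds, and their part in the P450 changes was not tested. Of 12 macrophage markers 9 were measured: in ETH all 9 rose (median 1.19), their mean level running from 10.18 to 10.25 over the treated arrays against 8.70 to 9.32 in the controls. In CIDB 5 rose (9.45 to 9.72 against 8.78 to 9.30), in DMN 4 rose (9.74 to 10.03 against the same controls) and in Mcarb 2 rose (9.87 to 10.92 against 9.42 to 9.65), while 7 fell in DHEA (8.65 to 9.04 against 9.42 to 9.65), 6 in CPA (8.48 to 8.94 against 9.23 to 9.76) and 5 in Wy (8.71 to 8.94 against 9.42 to 9.65). Vehicle animals differed too: set 1 lay a median of 0.59 above set 2 (8.80 to 9.21) and above set 5 (8.70 to 9.32), with no macrophage marker called. The DHEA and Wy arrays overlapped those 2 sets. Set 3 less set 4 gave a median of -0.52, and the CIDB, DMN and CPA arrays each overlapped the other corn oil set. Of the 9 hepatocyte markers measured, 6 fell in Wy (median -0.22), 5 in DHEA (median -0.23), 3 in CPA and 3 in PBO, where 1 rose, in ETH 2 rose and 1 fell, and in DES 1 rose and 2 fell. All 3 erythroid markers measured of 5 fell in CIDB (median -2.77, mean level 8.24 to 8.52 against 11.48 to 12.11) and in CPA (10.65 to 10.97 against 11.41 to 12.19), and 2 fell in ETH. Of 9 stellate cell and matrix markers, 3 rose in DES (7.92 to 8.05 against 7.53 to 7.74) and 3 fell in DHEA (7.41 to 7.58 against 7.94 to 7.99), with at most 2 called in 1 direction in any other compound. Control set 1, which served DHEA, stood apart for this list, with 4 markers higher than in set 2 (7.48 to 7.60), 2 higher than in set 6 and 1 higher than in set 5, and the DHEA arrays overlapped those of set 2. Of 6 biliary and progenitor markers measured, 3 rose in CIDB (Epcam, Cd24 and Prom1, mean level 6.75 to 6.98 against 6.39 to 6.50) and 2 in ETH (Krt19 and Epcam, 6.84 to 7.15 against 6.55 to 6.61). Of 4 endothelial markers measured, 2 fell in DHEA (Kdr and Lyve1, 7.82 to 8.07 against 8.36 to 8.45) and 2 in Wy (Pecam1 and Kdr, 7.95 to 8.14 against the same controls), and 2 were higher in control set 1 than in set 6. Of 6 lymphocyte markers measured, at most 1 was called in a compound. No marker was at 0, since RMA values of the array ran from 3.96 to 15.11.

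In the AHR-linked CYP1 subfamily, Cyp1a1, the classical inducible aryl hydrocarbon hydroxylase, rose in 3 compounds. Its level in the 3 ETH arrays was 9.14, 9.94 and 9.96 against 6.61, 7.22 and 7.36 in control set 5, a rise of 2.62 (SE 0.46, 6.14-fold, limma adjusted p = 1.88e-05). The PBO arrays had 7.67, 10.5 and 11.04 against the same controls, a rise of 2.67 (SE 0.46, 6.39-fold, limma adjusted p = 3.4e-05). All ETH arrays lay far above the controls, whereas in PBO 2 arrays did and 1 lay just above the highest control, so that the PBO arrays had an SD of 1.81. Without this lowest array (PBO replicate 3) the change was 3.71 (13.1-fold), and without PBO replicate 2 it was 2.02 (4.06-fold). A fit of the 6 compared arrays alone gave the PBO rise an adjusted p of 0.0526.

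In CIDB, an azo dye, Cyp1a1 had 8.65, 8.83 and 9.0 against 6.75, 6.91 and 7.46 in control set 3, a rise of 1.78 (SE 0.46, limma adjusted p = 0.00549). Here the 3 arrays were close together and above all controls. In AA and TAA, where the change was 1.02 and 1.08, the change did not pass the test (limma adjusted p = 0.206 and 0.173). In AA 1 array stood out, with 6.97, 7.60 and 9.48. The TAA arrays had 7.69, 7.75 and 8.79 against 6.85, 7.01 and 7.13 in control set 1, all above the controls. Those of PB (7.63, 8.03 and 8.25 against 6.98, 7.06 and 7.17), CPA and Wy also lay above all their controls without a call. Cyp1a2, the constitutive hepatic member that metabolises caffeine and arylamines, was not called in any of the 3 compounds with a Cyp1a1 call, with changes of -0.38 in ETH, -0.58 in PBO and 0.43 in CIDB. It fell instead in DMN by 1.30, DES by 1.28, CPA by 1.02 and Wy by 1.00. The CPA call was lost without any of 4 arrays (CPA replicates 1 and 2, control set 4 replicates 1 and 3, limma adjusted p up to 0.124) and the Wy call without Wy replicate 2 or control set 1 replicate 6 (up to 0.16). Cyp1b1 changed by -0.13 to 0.11 with no call.

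For the CAR-linked CYP2B genes only 3 symbols had a probe set of their own: Cyp2b3, a constitutive liver form, and Cyp2b12 and Cyp2b21. Cyp2b3 fell in DES by 0.57 and in Wy by 0.37, the latter being lost without any of 5 arrays (all 3 Wy arrays, control set 1 replicates 4 and 6, limma adjusted p up to 0.158). The phenobarbital-inducible Cyp2b1 and Cyp2b2 are read together by 1 probe set with both symbols, which is no member and cannot be assigned to either gene. That probe set rose by 2.99 in PB (SE 0.35, limma adjusted p = 7.92e-08), 2.98 in PBO, 2.07 in CPA, 1.87 in DHEA and 1.12 in Wy, and it fell by 2.04 in DES and 1.07 in ETH.

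Among the CYP2C genes Cyp2c7, a retinoid- and steroid-oxidising form that is higher in female rats, had the largest change. In ETH its levels were 11.35, 11.59 and 11.77 against 13.49, 13.74 and 13.80 in control set 5, so that the level fell by 2.10 (SE 0.16, 4.30-fold, limma adjusted p = 9.59e-15). All 3 treated arrays lay well below the lowest control. It also fell in Wy by 1.08 and rose in DES, a synthetic estrogen, by 0.47, a call that was lost without any of 5 arrays (all 3 DES arrays, control set 5 replicates 7 and 8, limma adjusted p up to 0.178). Cyp2c6v1, a phenobarbital-inducible form, rose in PBO by 0.48, PB by 0.44 and DES by 0.44, and fell in Wy by 0.30. The PB call was lost without PB replicate 2 or control set 6 replicate 1 (limma adjusted p up to 0.15), and the Wy call without any 1 of the 6 arrays (up to 0.161).

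The other CYP2C genes varied little. Cyp2c23, an arachidonic acid epoxygenase, fell in PBO by 0.51. The male-specific Cyp2c13 fell in DES by 0.28, with overlapping arrays and a call lost without any of 5 arrays (DES replicates 1 and 3, all 3 arrays of control set 5, limma adjusted p up to 0.303). Cyp2c22 rose in ETH by 0.28, lost without ETH replicate 2 or control set 5 replicate 8 (up to 0.0986).

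The PXR-linked CYP3A genes, which code for the main steroid and drug hydroxylases of the liver, were called in different compounds. Their sequences upstream of the transcription start are shown first, because Cyp3a23-3a1 and Cyp3a2 share a repeated element and Cyp3a18 and Cyp3a9 do not. Each line gives the 250 bases before the RefSeq start (build GRCr8), 5′ to 3′ on the gene's strand, and the capitals mark AGGTCA, a nuclear receptor hexamer, and TGAACT, a variant of it, on either strand (TGACCT and AGTTCA are the opposite strand). Where a pair TGAACTNNNTGAACT occurs, its 3 spacer bases are in capitals too.
Cyp3a23-3a1 (chr12:14398804-14399053, minus strand): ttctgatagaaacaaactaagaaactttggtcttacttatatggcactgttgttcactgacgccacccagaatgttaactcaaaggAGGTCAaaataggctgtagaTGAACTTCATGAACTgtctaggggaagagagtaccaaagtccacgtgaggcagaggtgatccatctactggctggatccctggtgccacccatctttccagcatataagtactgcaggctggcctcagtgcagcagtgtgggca
Cyp3a2 (chr12:14343858-14344107, minus strand): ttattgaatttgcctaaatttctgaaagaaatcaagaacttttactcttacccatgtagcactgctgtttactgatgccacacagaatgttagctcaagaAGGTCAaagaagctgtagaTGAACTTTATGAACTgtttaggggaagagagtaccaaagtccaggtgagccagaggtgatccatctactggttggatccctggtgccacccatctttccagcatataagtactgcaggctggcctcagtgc
Cyp3a18 (chr12:13994062-13994311, plus strand): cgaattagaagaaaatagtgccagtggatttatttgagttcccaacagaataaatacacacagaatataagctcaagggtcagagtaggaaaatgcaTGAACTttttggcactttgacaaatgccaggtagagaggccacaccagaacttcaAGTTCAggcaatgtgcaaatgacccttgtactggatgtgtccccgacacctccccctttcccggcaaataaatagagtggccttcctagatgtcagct
Cyp3a9 (chr12:21960161-21960410, minus strand): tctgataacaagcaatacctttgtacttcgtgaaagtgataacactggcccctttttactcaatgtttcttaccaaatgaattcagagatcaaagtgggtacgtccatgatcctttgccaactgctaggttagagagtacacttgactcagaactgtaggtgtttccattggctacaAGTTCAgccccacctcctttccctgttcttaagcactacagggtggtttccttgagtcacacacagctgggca

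The pair TGAACTNNNTGAACT, searched on both strands, begins 144 bases before the start of Cyp3a23-3a1 and 131 bases before that of Cyp3a2. These were the only 2 of 27457 upstream windows in the table with this exact pair (0.00728%), and both also hold AGGTCA just upstream of it. The 2 windows are alike over most of their length, as the lines above show, so they are not independent finds. Only this pair with 3 spacer bases was counted, so the share does not show that it is rarer than other pairs. Cyp3a18 has TGAACT in both orientations and Cyp3a9 has it 1 time on the opposite strand. The single hexamer TGAACT was in 29.0% of the 31 members with a window against 12.1% of all windows, AGGTCA in 32.3% against 13.7%, TATAAA in 25.8% against 13.2%, and the AHR core GCGTG in 16.1% against 26.9%. TGAACT and AGGTCA do not overlap with the pair except for the hexamers that form it. These are matches of letters, not sites shown to be used. The windows of Cyp1a1, Cyp2a2, Cyp2c6v1, Cyp4a1, Cyp4f17, Cyp4f4 and Cyp4v3 were not analysed here.

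Cyp3a23-3a1, the classical PXR-inducible CYP3A of the rat, rose in 6 compounds. In CPA it had 13.28, 13.49 and 13.50 against 12.27, 12.38 and 12.54, a rise of 1.03 (SE 0.13, limma adjusted p = 3.34e-07). In PBO it had 13.09, 13.14 and 13.36 against 12.10, 12.29 and 12.30, a rise of 0.96, and in PB it had 12.81, 12.99 and 13.12 against 12.11, 12.12 and 12.23, a rise of 0.82 (SE 0.13, limma adjusted p = 0.000135). The treated arrays lay above all controls in these 3 compounds, and the rises in DHEA (0.64), ETH (0.59) and CIDB (0.51) were smaller. The 6 calls held with each array left out. Control set 2 lay above control set 6 for this gene by 0.48 (limma adjusted p = 0.0458), a difference between vehicle animals close to the smallest of those rises.

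Cyp3a2, the male-predominant testosterone 6beta-hydroxylase that carries the same repeated element, rose in none: its changes ran up to 0.27, in DHEA, and it fell in ETH by 0.65 and DES by 0.43. The DES call was lost without any of 4 arrays (DES replicate 3, all 3 arrays of control set 5, limma adjusted p up to 0.336). Cyp3a18 rose in CPA by 0.74 and fell in DES by 1.14 and Wy by 1.04. Its CPA call was lost without any of 5 arrays (CPA replicates 1 and 3, all 3 arrays of control set 4, up to 0.178). The CYP3A coding sequences are similar, and cross-hybridisation between their probe sets was not tested.

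Cyp3a9, a steroid-hydroxylating form that is higher in female rats, had the largest fall of all members. In ETH the arrays had 6.67, 6.87 and 7.63 against 10.82, 10.86 and 11.23 in control set 5, so that the level fell by 3.91 (SE 0.38, 15-fold, limma adjusted p = 2.68e-11). In Wy they had 7.90, 8.20 and 8.66 against 10.60, 10.96 and 11.13 in control set 1, so that the level fell by 2.64 (SE 0.38, 6.24-fold, limma adjusted p = 1.24e-06). In DMN they had 7.91, 8.28 and 9.13 against 10.18, 10.64 and 11.08 in control set 3, so that the level fell by 2.19 (SE 0.38, 4.57-fold, limma adjusted p = 0.000186). No treated array reached the lowest control in these 3 compounds, and the calls held with each array left out.

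Cyp3a9 also fell in TAA by 1.26 and rose in CPA by 1.22, where the arrays had 11.09, 11.27 and 11.69 against 9.81, 10.20 and 10.37. With 1 array left out the change stayed between -1.41 and -1.15 in TAA and between 1.05 and 1.35 in CPA, but neither call held in each of these fits. The TAA call was lost without any of 5 arrays (all 3 TAA arrays, control set 1 replicates 4 and 6, limma adjusted p up to 0.138) and the CPA call without any of 5 (CPA replicates 1 and 2, all 3 arrays of control set 4, up to 0.185). Control set 4 had the lowest mean level of the gene among the control sets, 10.12, while set 2 had the highest, 11.22.

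**Figure D2:**
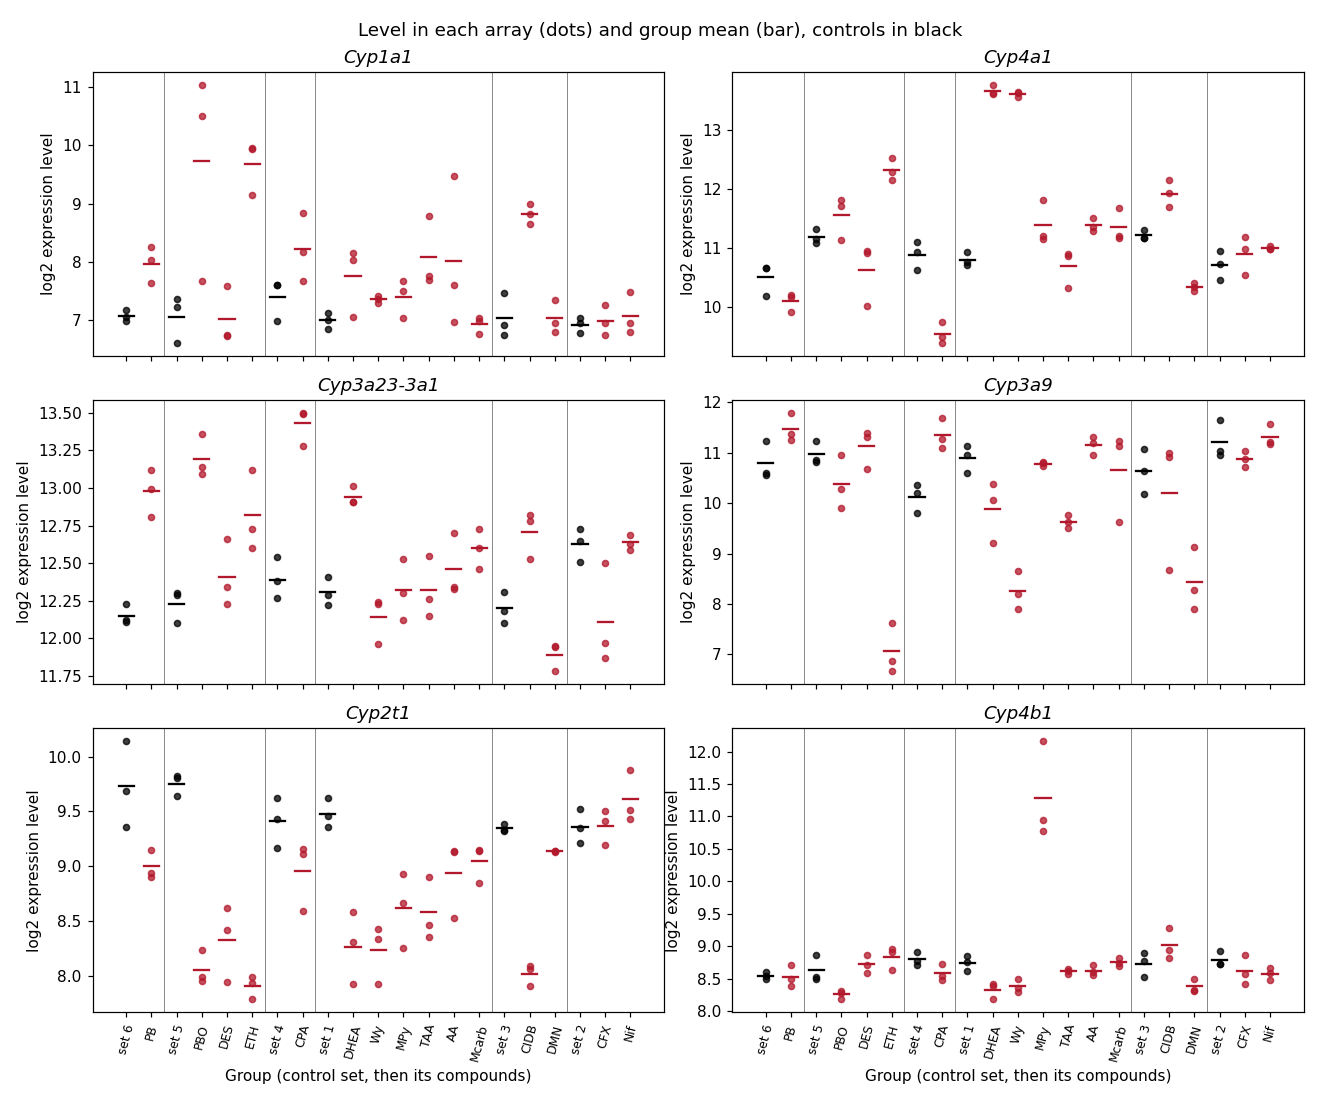
Log2 level of 6 genes in each of the 63 arrays (dots) with the group mean (horizontal bar), for each control set (black) followed by its compounds (red), with vertical lines between sets. Cyp1a1 in PBO shows 1 array at 7.67 beside 2 above 10, whereas Cyp4a1 in DHEA and Wy has all arrays above 13.5, and Cyp3a9 in ETH lies between 6.67 and 7.63.

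Of the 3 PPARalpha-linked CYP4A genes, which code for fatty acid omega-hydroxylases, Cyp4a1 and Cyp4a3 rose and Cyp4a8 fell in both peroxisome proliferators. Cyp4a1, the lauric acid omega-hydroxylase, had 13.61, 13.62 and 13.76 in DHEA against 10.72, 10.76 and 10.93 in control set 1, a rise of 2.86 (SE 0.19, 7.26-fold, limma adjusted p = 2.01e-16). In Wy, a synthetic PPARalpha agonist, it had 13.55, 13.62 and 13.64 against the same controls, a rise of 2.80 (SE 0.19, 6.96-fold, limma adjusted p = 4.27e-16). The arrays of both groups were tightly grouped and almost at the same level. Cyp4a3 rose in the same groups, from 12.02, 12.37 and 12.65 in the controls to 13.68, 13.75 and 14.11 in DHEA (by 1.5) and 13.84, 14.02 and 14.15 in Wy (by 1.66).

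The window upstream of Cyp4a3 is shown because the gene rose in both peroxisome proliferators and the window holds these hexamers. A link between the hexamers and the rise was not tested. Of the 31 members with a window, AGGTCA was in 10 and TGAACT in 9. The changes of members with and without these hexamers were not compared. In the Cyp4a3 window AGGTCA lies 105 bases before the start, and the opposite-strand TGAACT 220 bases before it, both in capitals.
Cyp4a3 (chr5:134352237-134352486, minus strand): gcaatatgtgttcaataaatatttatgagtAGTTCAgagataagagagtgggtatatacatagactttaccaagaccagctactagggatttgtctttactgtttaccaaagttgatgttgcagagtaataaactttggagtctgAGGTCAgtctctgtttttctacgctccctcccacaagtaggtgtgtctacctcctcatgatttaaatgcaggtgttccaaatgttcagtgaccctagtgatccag

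Outside the peroxisome proliferators Cyp4a1 rose in ETH by 1.14 and in CIDB by 0.70, the latter lost without CIDB replicate 3 (limma adjusted p = 0.0675). Cyp4a3 rose in CIDB by 0.98 and in PBO by 0.65, and in ETH its change was -0.31 with no call (limma adjusted p = 0.176). In CPA, an antiandrogenic progestin, both fell: Cyp4a1 had 9.40, 9.50 and 9.75 against 10.63, 10.93 and 11.11 (by 1.34, SE 0.19, limma adjusted p = 2.44e-06), and Cyp4a3 fell by 0.93. Cyp4a1 also fell in DMN by 0.87 and in DES by 0.55, the DES call being lost without any of 4 arrays (DES replicate 2, all 3 arrays of control set 5, up to 0.464). Between vehicle animals Cyp4a1 was higher in control set 5 than in set 6 by 0.67 (limma adjusted p = 0.0153).

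Cyp4a8 was called in the opposite direction to Cyp4a1 in CPA, DHEA, Wy and ETH. It rose in CPA by 0.94 and in PB by 0.73, and fell in Wy by 0.80, TAA by 0.62, MPy by 0.55, DHEA by 0.51 and ETH by 0.41. The falls in TAA (limma adjusted p = 0.0677) and DHEA (0.115) were lost without control set 1 replicate 4, that in MPy without this array or MPy replicate 1 (up to 0.16), and that in ETH without ETH replicate 2 or control set 5 replicates 7 or 9 (up to 0.122). The other Cyp4a8 probe set gave the same directions with larger sizes: 1.36 in CPA, 1.09 in PB, -1.58 in Wy, -1.49 in TAA, -1.28 in MPy, -1.46 in DHEA and -0.96 in ETH. It also gave calls that the brighter probe set did not, in Mcarb (-0.97), AA (-0.73) and CIDB (-0.69).

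In the remaining CYP4 genes Cyp4b1, a form known from lung that bioactivates furans, changed in 1 compound. In MPy, an antihistamine, the arrays had 10.77, 10.95 and 12.16 against 8.62, 8.76 and 8.85 in control set 1, a rise of 2.55 (SE 0.17, 5.87-fold, limma adjusted p = 5.47e-16). All MPy arrays lay above every array of the other groups, and no other compound gave a call. Without MPy replicate 3 the rise was 2.12 (4.34-fold).

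The CYP4F genes, which code for leukotriene and fatty acid omega-hydroxylases, mostly fell. Cyp4f4 fell in 9 compounds, by 0.45 in Wy to 1.09 in DES, with falls of 0.91 in TAA, 0.83 in MPy and 0.72 in CIDB. Its calls in Wy (limma adjusted p = 0.0511 without control set 1 replicate 6) and PBO (0.0801 without control set 5 replicate 8) were lost with 1 array left out. Cyp4f1 fell in 5 compounds, by 0.33 in CIDB to 0.63 in Wy, and Cyp4f6 fell in 4, by 0.57 in DHEA and 0.55 in Wy. The Cyp4f6 calls in DES (0.43, lost without control set 5 replicate 9, limma adjusted p = 0.114) and MPy (0.35, lost without any 1 of the 6 arrays, up to 0.189) did not hold with 1 array left out.

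Smaller rises were called for Cyp4f5, by 0.46 in MPy and 0.41 in Wy, each lost without replicate 2 of its group (limma adjusted p = 0.0531 and 0.121), and for Cyp4f17, by 0.55 in CIDB and 0.54 in PBO. Cyp4v3, a fatty acid omega-hydroxylase, fell in ETH by 0.80, Wy by 0.75, DHEA by 0.66 and PBO by 0.63, and each of these 4 calls was lost with 1 array left out. Those arrays were ETH replicate 1 or control set 5 replicate 8 (limma adjusted p up to 0.117), Wy replicate 3 or control set 1 replicate 4 (up to 0.181), any of 5 arrays in DHEA (DHEA replicates 1 and 3, all 3 of control set 1, up to 0.189) and any of 4 in PBO (PBO replicates 1 and 2, control set 5 replicates 7 and 8, up to 0.324). The dimmer Cyp4v3 probe set was called in CIDB alone (-0.78), so that the 2 probe sets disagree.

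Of the CYP2 genes outside the 2B and 2C subfamilies, Cyp2t1 fell in 9 of the 15: in ETH its arrays had 7.79, 7.94 and 7.99 against 9.64, 9.80 and 9.82, so that the level fell by 1.84 (SE 0.18, 3.59-fold, limma adjusted p = 3.97e-11), followed by PBO (1.69), DES (1.42), CIDB (1.32), Wy (1.24), DHEA (1.21), TAA (0.90), MPy (0.86) and PB (0.73). The groups did not overlap in any of the 9, and all calls but that in PB held with each array left out. The PB call was lost without any of 4 arrays (PB replicates 1 and 2, control set 6 replicates 1 and 3, limma adjusted p up to 0.152).

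The 3 CYP2D members, of a subfamily known for debrisoquine-type hydroxylation, were all called down in ETH and DES. In ETH Cyp2d3 had 10.38, 10.66 and 11.26 against 12.72, 12.72 and 12.79, so that the level fell by 1.98 (SE 0.11, limma adjusted p = 8.13e-19), and Cyp2d4 fell by 1.10 and Cyp2d2 by 0.21. In DES Cyp2d4 fell by 0.97, Cyp2d3 by 0.73 and Cyp2d2 by 0.44. Cyp2d3 also fell in TAA (0.83), MPy (0.67) and PBO (0.53), Cyp2d4 in DHEA (0.68) and PBO (0.60), and Cyp2d2 in Wy (0.33) and MPy (0.25). Of these, the Cyp2d2 calls in ETH (lost without ETH replicates 1 or 2 or control set 5 replicates 7 or 8, limma adjusted p up to 0.0727) and MPy (lost without MPy replicate 1 or control set 1 replicates 4 or 5, up to 0.14) did not hold with 1 array left out. The dimmer Cyp2d4 probe set was called down in more compounds, among them Wy (-0.76), MPy (-0.72) and DMN (-0.61). A probe set shared by Cyp2d5 and Cyp2d1, which is no member, was not called in ETH (-0.436, limma adjusted p = 0.264) or DES (-0.354, 0.431). It was called down in MPy (-0.965) and Wy (-0.981).

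Among the CYP2A genes, which code for testosterone hydroxylases, the male-predominant Cyp2a2 had 10.48, 10.54 and 11.80 in ETH against 12.48, 12.64 and 12.81, so that the level fell by 1.70 (SE 0.18, limma adjusted p = 1.6e-10). It also fell in DES by 0.53 and CIDB by 0.52, both lost with 1 array left out (DES replicates 1 or 2 or control set 5 replicates 8 or 9, limma adjusted p up to 0.134, CIDB replicate 1 or control set 3 replicates 4 or 5, up to 0.389). Cyp2a1 rose in DHEA by 0.71 and CIDB by 0.61 and fell in ETH by 0.40, the fall being lost without ETH replicates 1 or 2 or control set 5 replicate 7 (up to 0.124). Between vehicle animals Cyp2a1 was higher in control set 2 than in set 5 by 0.74 (limma adjusted p = 0.00053), more than either of its rises. A probe set shared by Cyp2a2 and Cyp2a1, which is no member, was called down in ETH (-1.356) and DES (-0.373). It was called up in DHEA (0.444) and Wy (0.401). In CIDB, where Cyp2a2 fell and Cyp2a1 rose, its change was 0.189 with no call (limma adjusted p = 0.32).

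Cyp2e1, which oxidises ethanol and bioactivates small molecules such as nitrosamines, fell in DMN by 0.71 (SE 0.13, limma adjusted p = 0.000324). It rose in CIDB by 0.58, in AA by 0.48 and in DHEA by 0.40. The AA call was lost without AA replicates 1 or 2 or control set 1 replicate 6 (limma adjusted p up to 0.228), and the DHEA call without DHEA replicates 1 or 3 or that control array (up to 0.242). Cyp2f4, a naphthalene-oxidising form, fell in DES by 0.98, ETH by 0.71, PBO by 0.64, DHEA by 0.55 and Wy by 0.52, the last lost without Wy replicate 3 or control set 1 replicate 6 (up to 0.213).

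The CYP2J genes, which code for arachidonic acid epoxygenases, differed in the direction of their calls. Cyp2j4 had 10.84, 10.92 and 11.04 in DHEA and 10.57, 10.72 and 11.38 in Wy against 9.17, 9.34 and 9.44 in control set 1, rises of 1.62 and 1.57 (SE 0.19 each, limma adjusted p = 4.59e-09 and 1.11e-08). It also rose in PBO by 1.23, with 10.36, 10.40 and 10.63 against 8.94, 9.08 and 9.69. Cyp2j3 fell in ETH by 1.05, DES by 0.88 and MPy by 0.76. Cyp2s1 rose in DHEA by 0.25, a call lost without DHEA replicates 1 or 3 or control set 1 replicate 6 (limma adjusted p up to 0.0956).

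By compound, the members stood against the share of all 10411 genes called in each direction. In ETH 4 members rose and 14 fell, where 13.6% of genes were called up and 13.1% down. In DES 2 rose and 16 fell (6.79% and 9.99% of genes), and in Wy 4 rose and 14 fell (7.67% and 7.38%). In DHEA 7 rose and 7 fell (9.78% and 9.35%), in PBO 6 and 7 (7.04% and 8.44%), and in CIDB 7 and 4 (8.63% and 6.62%). In MPy 2 rose and 7 fell (3.49% and 3.31%), in CPA 4 and 4 (3.2% and 5.34%), and in PB 3 and 1 (0.999% and 0.509%). The 4 calls in PB became 1 with the compared arrays alone, 0 with the replicate block, 7 with pooled controls and 2 to 5 with 1 array left out, and the 8 in CPA became 5 to 8 with 1 array left out. In DMN none rose and 5 fell (2.88% and 0.855%), in TAA none rose and 5 fell (3.6% and 3.68%), and in AA 1 rose and 1 fell (1.82% and 1.95%). With array weights 14 members were called in DMN, 8 in TAA and 6 in AA, and with 1 array left out 3 to 5 in TAA and 1 to 3 in AA. The median absolute change of the members was 0.34 in ETH and 0.32 in DES, PBO and Wy, where that of all genes was 0.14, 0.12, 0.12 and 0.11.

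No member was called by limma in CFX, a cephalosporin antibiotic (0% of genes up and 0% down), in Mcarb (0.932% and 0.25%) or in Nif, a calcium channel blocker (4.26% and 2.95%). At an unadjusted p under 0.05 the members numbered 3, 11 and 3. With array weights 1, 2 and 1 members were called, and with controls pooled by vehicle 3 in Mcarb and 2 in Nif. The lowest adjusted p of a member was 0.54 in CFX (Cyp3a23-3a1), 0.0909 in Mcarb (Cyp4a8) and 0.0997 in Nif (Cyp2c22).

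**Figure D3:**
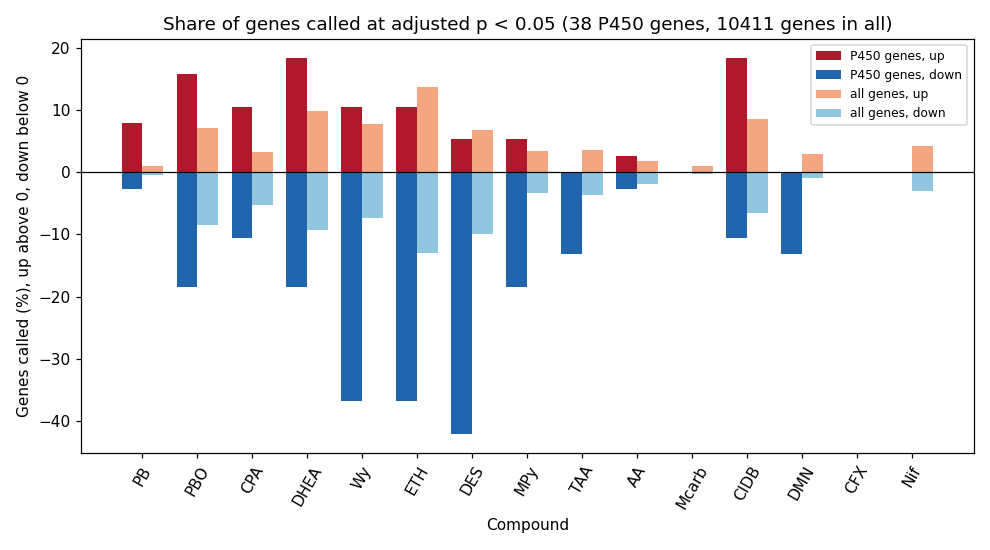
Percent of the 38 P450 genes (dark bars) and of all 10411 genes (pale bars) called up (above 0) and down (below 0) in each compound. DES with 16, ETH with 14 and Wy with 14 members down have the longest dark bars below 0.

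The control sets of 1 vehicle gave the spread between vehicle animals. Among methylcellulose sets no member was called by limma between sets 1 and 2 (0.797% of genes), 1 and 5 (1.97%) or 1 and 6 (7.33%), with 4, 3 and 7 members at an unadjusted p under 0.05. Cyp2a1 was called between sets 2 and 5 (2.32% of genes) and Cyp3a23-3a1 between sets 2 and 6 (1.85%), and Cyp4a1 and Cyp4f4 (0.56) were called between sets 5 and 6 (10.3%). Between the corn oil sets 3 and 4, which also differ in days, no member was called (0.307% of genes, 2 members at an unadjusted p under 0.05, and 3 called with array weights). Cyp4f4 was higher in set 5, which served DES, ETH and PBO, than in set 6.

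Pairs of compounds were compared directly to ask whether a member differed between them. DHEA and Wy, both peroxisome proliferators in the rat, differ in dose and days (600 mg/kg/day for 14 days and 60 mg/kg/day for 3 days). Of the members, 9 differed and all were higher in DHEA, where 8% of genes were called. The largest differences were in Cyp3a9 (1.63, 95% interval 0.86 to 2.40), Cyp2c7 (1.17), Cyp3a18 (0.90) and Cyp3a23-3a1 (0.80), followed by Cyp2c6v1, Cyp2a1, Cyp2b12, Cyp2d2 and Cyp2s1. With the replicate number as a block 4 remained, Cyp3a9, Cyp2c7, Cyp3a23-3a1 and Cyp2c6v1 (limma adjusted p from 0.01 to 0.0391), where 3.08% of genes were called, and without Wy replicate 3 the number called was 4. The CYP4A genes were not called: Cyp4a1 differed by 0.06 (95% interval -0.32 to 0.44) and Cyp4a3 by -0.16 (-0.49 to 0.17), and Cyp2j4 by 0.05 (-0.33 to 0.42).

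CIDB and DMN, both given for 7 days and both classed as genotoxic carcinogens in the study, differed in 12 members, 10 higher and 2 lower in CIDB (14.1% of genes called). Cyp1a1 was higher in CIDB by 1.79, Cyp3a9 by 1.76, Cyp1a2 by 1.74, Cyp4a1 by 1.57, Cyp2e1 by 1.29 and Cyp4a3 by 1.28. Cyp3a23-3a1 (0.82), Cyp2a1 (0.74), Cyp4b1 (0.63) and Cyp2c6v1 (0.51) followed. Cyp2t1 was lower in CIDB by 1.11 and Cyp2f4 by 0.54. The Cyp3a9 arrays overlapped, because 1 CIDB array had 8.68, below the highest DMN array at 9.13. The fit behind these differences took no account of replicate numbers, although 5 of the 6 CIDB and DMN arrays correlated best with their own number.

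**Figure D4:**
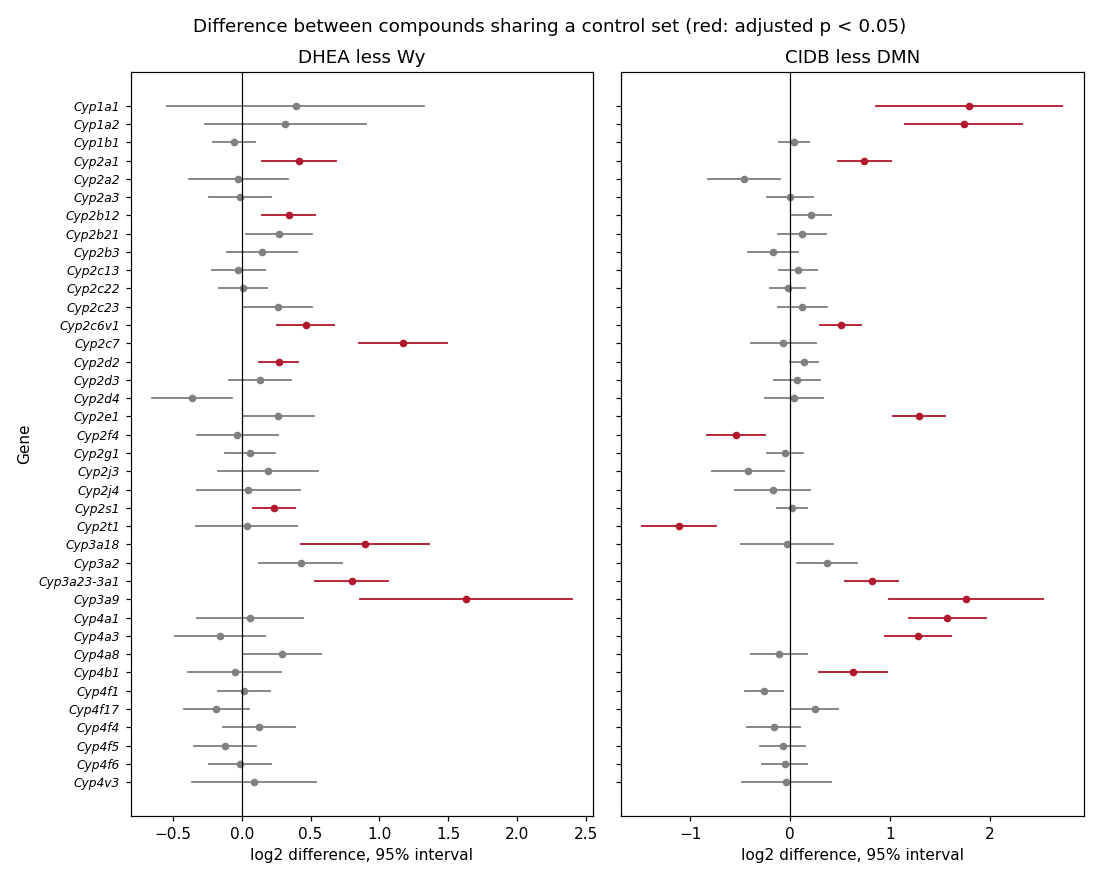
Log2 difference of each gene between DHEA and Wy (left) and between CIDB and DMN (right), with the 95% interval of the limma fit and the called genes in red. On the left 9 genes lie above 0 and Cyp4a1 and Cyp4a3 span 0, and on the right 10 genes lie above 0 and 2 below.

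The changes of PB and PBO, each against its own control set, differed in 7 members (7.25% of genes called). For PB less PBO the change differed by -1.06 in Cyp2j4, and by 0.96 in Cyp2t1, 0.83 in Cyp4a8, 0.77 in Cyp2d4, 0.67 in Cyp4f4, 0.66 in Cyp2d3 and 0.58 in Cyp2c23. Without PB replicate 2 the number called was 4. Cyp3a23-3a1, called in both, differed by -0.14 (95% interval -0.52 to 0.24), and Cyp1a1 by -1.77 (-3.09 to -0.45, limma adjusted p = 0.0966). PB and CPA differed in 1 member, Cyp4a3 (0.94), where 1.31% of genes were called, and the call was lost without any of 5 arrays (PB replicates 2 and 3, CPA replicate 3, control set 4 replicate 1, control set 6 replicate 1). CIDB and PBO differed in 3, Cyp2j4 (-1.12), Cyp2e1 (0.78) and Cyp2d4 (0.73), where 12.4% were called, and in 5 without CIDB replicate 1. Their Cyp1a1 rises differed by -0.89, with an interval from -2.21 to 0.43.

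The study asks whether expression separates 8 non-genotoxic carcinogens (PB, PBO, DHEA, AA, MPy, Mcarb, DES and ETH), 2 genotoxic carcinogens (CIDB and DMN) and 2 non-carcinogens (CFX and Nif). With the mean change of each compound as 1 value, limma called no member between all 10 carcinogens and the non-carcinogens, between the 2 kinds of carcinogens, or between the non-genotoxic carcinogens and the non-carcinogens, where 0.0192%, 0.115% and 0.0192% of genes were called. At an unadjusted p under 0.05 there were 7, 2 and 8 members, where 9.56%, 12.7% and 11.1% of genes passed. Cyp2t1 had the largest such difference, with a mean change of -1.09 in the non-genotoxic carcinogens (-1.84 to -0.43) and 0.13 in the non-carcinogens (0.01 and 0.25), with an exact permutation p of 0.0222 over compounds, the smallest these permutations allow, and a limma adjusted p of 0.315. Compounds that share a control set are not independent.

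The proteins that P450 enzymes work with were read from a list of 18 genes, of which 14 were measured. Por, the reductase that passes electrons to all microsomal P450 enzymes, rose in PBO by 1.22, CPA by 1.07, PB by 1.06, DHEA by 0.80, ETH by 0.77 and TAA by 0.76. Alas1, the rate-limiting enzyme of heme synthesis in liver, rose in ETH by 1.36, PB by 0.99 and PBO by 0.91, and fell in MPy by 0.90 and DES by 0.79. The heme-degrading Hmox1 rose in ETH (0.79) and PBO (0.77), and the electron donor Cyb5a in CPA (0.35), PB (0.34) and PBO (0.30). Pgrmc2 changed by 0.842 in Wy, 0.805 in DHEA, -0.783 in CPA, -0.535 in DES and -0.46 in ETH. Of the 14, 6 rose and 4 fell in ETH, 5 rose in PBO, 3 rose in PB, 5 fell in DES and 4 fell in CIDB. In DHEA 3 rose and 2 fell, in Wy 2 rose and 2 fell, and in CPA 2 rose and 1 fell. In TAA 2 rose, in MPy 2 fell, and in AA and DMN 1 rose. None was called in CFX, Mcarb or Nif.

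Of 12 receptor and regulator genes 11 were measured. None of the 11 was called in ETH, PB, CPA, CFX, DMN, Mcarb, MPy or TAA. Rxra rose in DHEA by 0.616, AA by 0.508 and CIDB by 0.364, Cebpa rose in DHEA by 0.68 and Arnt in AA by 0.303. Between vehicle animals Rxra was called lower in control set 1, which served AA and DHEA, than in set 6. Nr1i3, which codes for CAR, rose in CIDB by 1.28, Ppara rose in Wy by 0.33, and Nr0b2 rose and Nr1h4 fell in DES. Hnf4a, which maintains hepatocyte expression, rose in AA (0.85), PBO (0.68), CIDB (0.60) and DHEA (0.59). Between vehicle animals it was called in 4 of the 6 pairs of methylcellulose sets, whose mean levels ran from 8.72 in set 5 to 9.53 in set 2, a spread as large as those rises except that in AA. In Nif, where no P450 member was called, 5 of the 11 fell: Cebpa by 1.69, Hnf4a by 1.23, Rxra by 0.77, and Nr1i2 (PXR) and Arnt. Control set 2, which served Nif, was higher than set 5 in Hnf4a by 0.81 and in Cebpa by 0.55.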

How the data were processed

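The authors deposited 1 log2 value for each of 15866 probe sets on each of 63 arrays (RAE230A). Array images were read with MAS 5 and the probes summarised by RMA (affy, version not given in the sources used here), which subtracts background and makes the arrays comparable. The annotation table gave 1 symbol to 12783 probe sets, several to 312 and none to 2771. Probe sets with several symbols named no gene. No value column lacked a sample (0). The number of arrays, not a count depth, limits the precision.

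A model with 1 mean for each of 21 groups was fitted with limma 3.58.1 in R 4.3.3 (42 residual degrees of freedom). Within a comparison the Benjamini-Hochberg adjustment took in every probe set. The fit was tested on simulated data. The named genes were the up to 6 largest rises and falls called per compound and the known receptor targets, with array values for changes of at least 2. The members and lists were chosen with earlier results of these data known. All 38 members matched RefSeq (GRCr8) by gene ID, and 31 had an upstream window.

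Titles number replicates. DHEA and Wy deviated together by number (correlations from 0.132 to 0.15 over probe sets, each of 6 arrays correlating best with its own number), so the blocked fit stands beside that result. Alternatives were the fit of the compared arrays alone, pooled controls, array weights, a filter on dim probe sets, median centring, another probe set, trended robust moderation, the fold criterion of 2.5, single arrays left out and the replicate block. The control probe sets for RNA quality were not analysed here. Figures used Python 3.11.15 and matplotlib 3.10.9.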

Additional observations from a re-analysis of the deposited data

How the results depend on the processing

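No change reversed direction. With the compared arrays alone, 1 member was called in PB (4 before) and 0 in sets 2 less 5, 2 less 6 and 5 less 6, and 21 of the 125 calls were lost. The fits in that setting had fewer arrays for the estimate of the spread, but the cause of the lost calls was not tested in any setting. Pooled controls gave 3 calls in Mcarb, 2 in Nif, 7 in PB, 0 in PB less CPA and 6 in CIDB less PBO. Array weights gave 6 in AA, 1 in CFX, 14 in DMN (5 before), 2 in Mcarb, 1 in Nif, 8 in TAA, 0 in sets 2 less 6, 1 in 5 less 6, 3 in 3 less 4, 0 in PB less CPA and 6 in CIDB less PBO. The probe set with the largest variance gave 1 in Mcarb and 1 in sets 1 less 5. A fold above 2.5 with no test gave 0 in AA, 2 in CIDB, 1 in CPA, 1 in DES, 3 in DHEA, 1 in DMN, 6 in ETH, 1 in MPy, 0 in PB, 2 in PBO, 0 in TAA and 4 in Wy. The dim filter lost 0 of the 125 calls, median centring 1 and trended robust moderation 3.

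The replicate block on the compared arrays gave 0 in PB (4 before), 0 in PB less CPA and 4 in DHEA less Wy. Numbers paired neither PB with set 6 (correlations from -0.153 to -0.048, 0 of 6 arrays correlating best with their own number) nor CPA with set 4 (from -0.153 to 0.165, 3 of 6), where samples share only a number. For CIDB and DMN (from 0.0262 to 0.166) 5 of 6 arrays correlated best with their own number, so a pairing by number is not settled there.

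With 1 array left out at a time, the number called ran from 1 to 3 in AA, 5 to 8 in CPA (5 without CPA replicate 1, control set 4 replicate 1 or control set 4 replicate 3), 0 to 2 in Mcarb, 2 to 5 in PB (2 without PB replicate 2 or control set 6 replicate 1), 3 to 5 in TAA (3 without control set 1 replicate 4), 4 to 9 in DHEA less Wy, 2 to 5 in CIDB less PBO, 4 to 9 in PB less PBO and 0 to 2 in PB less CPA (0 without PB replicates 2 or 3, CPA replicate 3, control set 4 replicate 1 or control set 6 replicate 1). Between control sets it ran from 0 to 2 in 1 less 6, 0 to 1 in 2 less 6 and 1 to 5 in 5 less 6.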
